A study of Caenorhabditis elegans with 12 samples.

Results

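The 6 Hox genes of Caenorhabditis elegans, ceh-13, lin-39, mab-5, egl-5, php-3 and nob-1, were followed through the RNA of eggs. They were picked by their WormBase symbols, and each matched 1 of the 25122 genes measured. The 3 genotypes compared, with 4 libraries each, all carried the e1370 allele of the insulin/IGF-1 receptor gene daf-2, and no wild type is analysed here. The triple mutant (daf-16;daf-2;bcl-11) adds the alleles mu86 of daf-16 and bon125 of bcl-11, the double mutant (daf-2;bcl-11) adds bon125 alone, and the third genotype, called daf-2, has e1370 only. Each genotype was 1 strain. The parents were grown at 20°C, and the eggs, collected by bleaching, were kept at 27°C for 2 h. bon125 is a frameshift allele that keeps the zinc fingers of BCL-11, the worm member of the BCL11 transcription factors, and mu86 is a deletion in daf-16, the gene of the FOXO factor that insulin signaling restrains. A value is an rlog, a normalized count on a log2 scale in which low counts are drawn towards the gene's mean, so that 1 unit is a 2-fold difference and changes of weak genes are understated. Depth is unknown, since read numbers cannot be recovered from rlogs. Nothing states that the 4 libraries of a genotype came from separate cultures, so the p-values measure the spread between these libraries only.

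Hox genes encode homeodomain transcription factors that give cells along the head-to-tail axis their regional identity. In C. elegans ceh-13, the labial-type gene, acts in the anterior, lin-39 (Deformed/Sex combs reduced type) in the mid-body, mab-5 (Antennapedia type) behind it, and egl-5, php-3 and nob-1 (Abdominal-B type) in the tail. ceh-13 and nob-1 are needed for the embryo to form, and php-3 acts redundantly with nob-1, whereas animals without lin-39, mab-5 or egl-5 are viable and show most of their defects after hatching. The proteins bind DNA together with TALE homeodomain cofactors, and Polycomb-type chromatin factors keep the genes silent outside their domains.

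All members lie on chromosome III of WBcel235 (Ensembl 115 annotation), in 3 pairs. lin-39 (WBGene00003024, 7528641 to 7536632, minus strand) and ceh-13 (WBGene00000437, 7555660 to 7558041, plus strand) are 19027 bp apart. mab-5 (WBGene00003102, 7776835 to 7783454, minus strand) and egl-5 (WBGene00001174, 7814374 to 7817141, plus strand) are 30919 bp apart. php-3 (WBGene00004024, 12074218 to 12077556) and nob-1 (WBGene00003779, 12077793 to 12084316) share the minus strand with 236 bp between them. The libraries do not keep the strand of a transcript. Noncoding RNA genes overlap lin-39 and egl-5 on the opposite strand, and the pair measured inside lin-39, C07H6.14 and C07H6.18, had mean rlogs of at most 0.20 and 1.90 in any genotype.

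Some facts of the whole series bear on every result. daf-16 had a mean rlog of 9.72 in triple mutant eggs, 9.52 in the labelled double mutant and 12.12 in daf-2 eggs. The labelled double mutant libraries thus held as little daf-16 as the mu86 mutant, although the label gives no daf-16 allele, and they are called the labelled double mutant throughout. bcl-11 had mean rlogs of 9.10, 9.28 and 10.15 in the same order. Median rlogs per library were 5.77 to 5.95 in the triple mutant, 5.92 to 6.01 in the labelled double mutant and 6.36 to 6.50 in daf-2. Centring every library on its median adds 0.54 to each change of the triple mutant against daf-2, 0.43 to each change of the labelled double mutant against daf-2 and 0.11 between the mutants. A gene was called at an adjusted p below 0.05 in limma (Benjamini-Hochberg over all 25122 genes) and an absolute log2 fold change above 0.585, a 1.5-fold change.

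Against daf-2 eggs, the anterior gene ceh-13 and the posterior pair php-3 and nob-1 were higher in triple mutant eggs. The mid-body genes lin-39 and mab-5 and the tail gene egl-5 were not called. 3 of the 6 Hox genes were called, all of them higher, where 22.5% of all genes were called in either direction and 6.38% were called higher. Of the 6, 2 were called in the labelled double mutant against daf-2, ceh-13 and nob-1, again both higher, with 22% of all genes called and 7.00% called higher. Fitting only the 16924 genes with a mean rlog of at least 3.32 gave 5698 calls in the triple mutant, 1634 of them higher. The labelled double mutant then had 5616, 1826 of them higher, so 2 of 6 is near the share called there in either direction. The median log2 fold change of the 6 genes was 0.49 in the triple mutant and 0.18 in the labelled double mutant, beside -0.01 and -0.02 over all genes. The libraries of the 2 genotypes did not overlap for 3 of the 6 genes in each comparison with daf-2, namely ceh-13, php-3 and nob-1. Over all genes this held for 29.8% in the triple mutant and 35.3% in the labelled double mutant. The 4 daf-2 libraries serve both comparisons, whose directions are therefore not independent of each other.

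**Figure D1:**
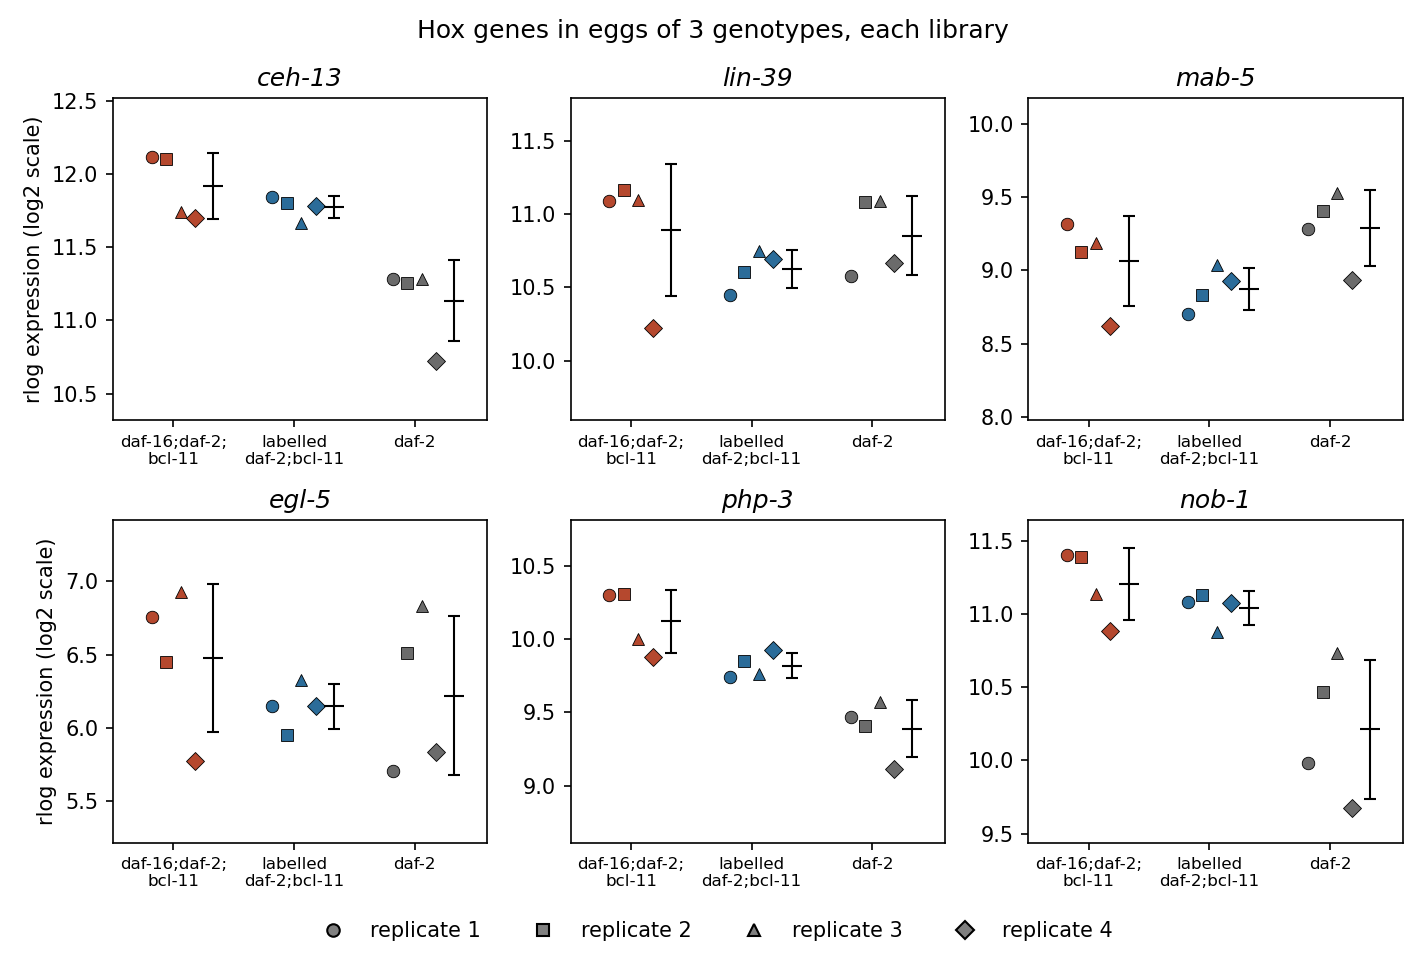
rlog expression (log2 scale) of each Hox gene in each library, with the triple mutant on the left, the labelled double mutant in the middle and daf-2 on the right; symbols mark the replicate number, and the bar beside each group is its mean ± SD (n = 4). Every panel spans the same 2.2 log2 units. For ceh-13, php-3 and nob-1 all 4 daf-2 libraries lie below all mutant libraries, while for lin-39, mab-5 and egl-5 the groups overlap.

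nob-1, whose loss leaves embryos without a normally formed posterior, showed the largest change of the 6 genes in both comparisons. It had rlogs of 11.40, 11.39, 11.14 and 10.89 in the triple mutant (replicates 1 to 4), 11.08, 11.13, 10.87 and 11.08 in the labelled double mutant, and 9.98, 10.46, 10.73 and 9.68 in daf-2. The daf-2 libraries spread more widely than the others, and even the highest of them, replicate 3, stayed below every mutant library. Relative to daf-2 the log2 fold change was 0.99 in the triple mutant (standard error 0.20, adjusted p = 0.00188), or 1.99-fold. The labelled double mutant gave 0.83 (standard error 0.20, adjusted p = 0.0072), or 1.78-fold. Both mutants were higher in 4 of 4 batches, a batch being the libraries of the same replicate number. The exact permutation p was 0.0286 for each (two-sided), the smallest that 4 libraries against 4 allow. Where genotypes do not overlap, as here and for php-3 and ceh-13, both results follow from that and add no support. The within-batch difference ranged widely: in the labelled double mutant minus daf-2 it was 1.10, 0.67, 0.14 and 1.40 in batches 1 to 4. Neither call was lost when any single library was left out, with log2 fold changes between 0.81 and 1.16 in the triple mutant and between 0.65 and 1.00 in the labelled double mutant.

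php-3, the neighbour of nob-1 and its partner in function, had rlogs of 10.30, 10.31, 10.00 and 9.88 in the triple mutant, 9.75, 9.85, 9.76 and 9.93 in the labelled double mutant, and 9.47, 9.41, 9.57 and 9.12 in daf-2. The highest daf-2 library lay below the lowest mutant library. Relative to daf-2 the triple mutant was at 0.73 (standard error 0.15, adjusted p = 0.00171), or 1.66-fold, with 4 of 4 batches higher and an exact permutation p = 0.0286 (two-sided). The labelled double mutant was at 0.43 (standard error 0.15, adjusted p = 0.0416), or 1.35-fold, also with 4 of 4 batches higher and the same exact p. This passed the threshold on p but not the one on the size of the change, and median centring (0.86), quantile normalization (0.64) and the stage covariate described later made it a call.

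ceh-13 is the only Hox gene of the anterior in this animal. It had rlogs of 12.12, 12.10, 11.74 and 11.70 in the triple mutant, 11.84, 11.80, 11.67 and 11.78 in the labelled double mutant, and 11.28, 11.26, 11.28 and 10.72 in daf-2. The first 3 daf-2 libraries were almost equal, replicate 4 was lower, and none reached the mutant libraries. Its log2 fold change relative to daf-2 was 0.78 in the triple mutant (standard error 0.15, adjusted p = 0.00127), or 1.72-fold. For the labelled double mutant it was 0.64 (standard error 0.15, adjusted p = 0.00596), or 1.55-fold. Each was higher in 4 of 4 batches, with an exact permutation p of 0.0286 (two-sided). The second call was lost without replicate 4 of daf-2 (0.50, adjusted p = 0.0142) and after quantile normalization (0.57, adjusted p = 0.0169), in both cases because the change fell short of 0.585.

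lin-39, which specifies vulval precursor cells and neurons of the mid-body, had rlogs of 11.09, 11.17, 11.10 and 10.22 in the triple mutant, 10.45, 10.61, 10.75 and 10.69 in the labelled double mutant, and 10.58, 11.09, 11.09 and 10.67 in daf-2. Replicate 4 of the triple mutant was the lowest of all 12 libraries, while the other 3 of that genotype were at or above the highest daf-2 libraries. The log2 fold change against daf-2 was 0.04 in the triple mutant (95% confidence interval -0.39 to 0.47, adjusted p = 0.911) and -0.23 in the labelled double mutant (-0.66 to 0.20, adjusted p = 0.429). The first value was 0.26 without replicate 4 of the triple mutant, again not called.

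mab-5, which steers migrating neuroblasts and patterns the posterior body, had rlogs of 9.32, 9.13, 9.19 and 8.62 in the triple mutant, 8.70, 8.83, 9.04 and 8.93 in the labelled double mutant, and 9.28, 9.41, 9.53 and 8.93 in daf-2. Its values in the labelled double mutant were lower than those of daf-2 in 4 of 4 batches, although batch 4 differed by less than 0.01, and the groups overlapped. That count rests on pairing by replicate number, and what same-numbered libraries shared is not stated. The log2 fold change in the labelled double mutant was -0.41 (95% confidence interval -0.80 to -0.02, adjusted p = 0.106), with an exact permutation p = 0.0571 (two-sided). In the triple mutant against daf-2 it was -0.22 (-0.61 to 0.17, adjusted p = 0.39).

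egl-5, which acts in the tail and in the migration of the HSN motor neurons, had the lowest rlogs of the set and the widest intervals. It was at 6.75, 6.45, 6.93 and 5.78 in the triple mutant, 6.15, 5.95, 6.33 and 6.15 in the labelled double mutant, and 5.71, 6.51, 6.84 and 5.83 in daf-2. The log2 fold change against daf-2 was 0.26 in the triple mutant (95% confidence interval -0.35 to 0.86, adjusted p = 0.536) and -0.07 in the labelled double mutant (-0.68 to 0.53, adjusted p = 0.872). On the deposited scale, changes as large as those of nob-1 lay outside the interval in the labelled double mutant. In the triple mutant the interval reached 0.86, above the change of php-3. With median centring the labelled double mutant was at 0.35 (standard error 0.29), and with the stage covariate at 0.69 (standard error 0.31). The upper limit of 0.53 there thus holds for the deposited scale only. Median centring made egl-5 a call in the triple mutant (0.79, adjusted p = 0.0199).

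The triple mutant was also compared with the labelled double mutant, the comparison that would isolate loss of daf-16 if the labels hold. None of the 6 Hox genes was called in limma, none had an unadjusted p below 0.05, and none was separated between the genotypes. Over all genes 0.0119% were called in this comparison, 6.03% had an unadjusted p below 0.05 and 4.32% did not overlap. All 6 values were positive, between 0.14 for ceh-13 and 0.33 for egl-5, and the smallest p was that of php-3 (0.30, 95% confidence interval -0.02 to 0.62, unadjusted p = 0.0616, two-sided exact permutation p = 0.0571). For ceh-13 the interval ran from -0.18 to 0.47, for mab-5 from -0.20 to 0.58 and for nob-1 from -0.28 to 0.60. For lin-39 it was -0.16 to 0.70 and for egl-5 -0.27 to 0.94. In batch 4 all 6 genes were lower in the triple mutant than in the labelled double mutant, and in batches 1 to 3 all 6 were higher. For ceh-13, php-3 and nob-1 the order of the means was the triple mutant, then the labelled double mutant, then daf-2, and the first pair in that order did not differ beyond its spread.

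**Figure D2:**
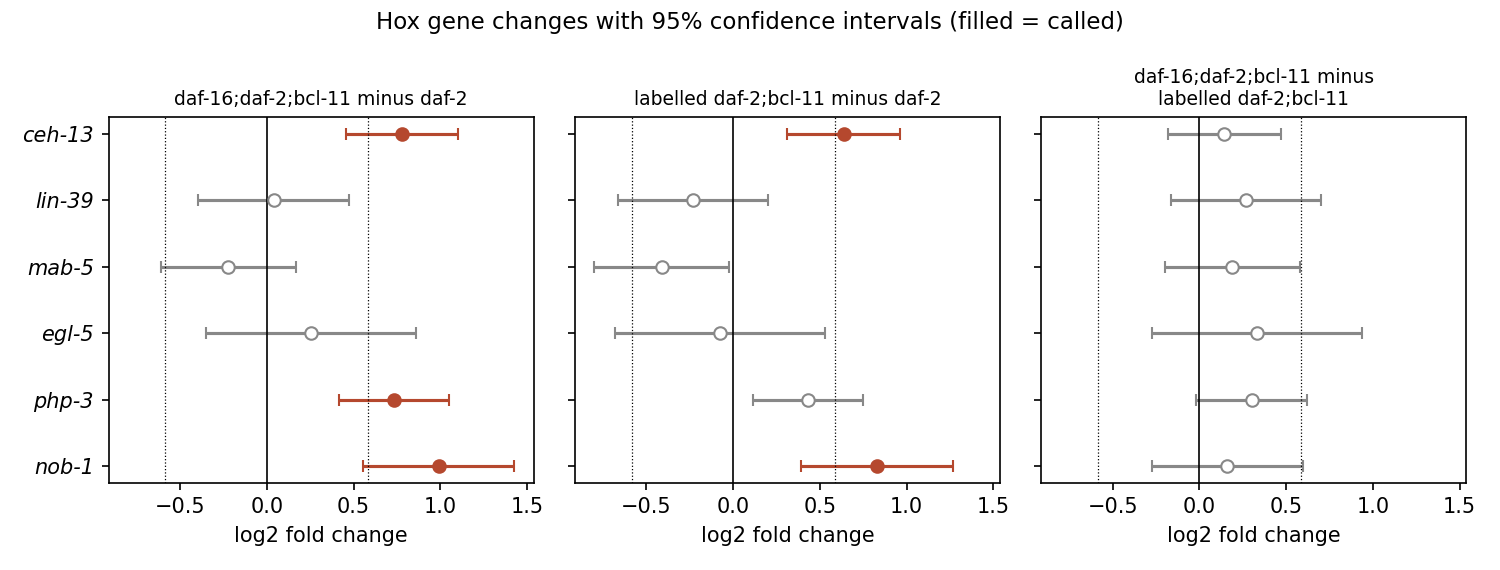
log2 fold change of each Hox gene (points) with its 95% confidence interval (bars) in the triple mutant minus daf-2 (left), in the labelled double mutant minus daf-2 (middle) and between the mutants (right). Filled red points are called genes and dotted lines mark the threshold of 0.585; 3 genes are filled on the left, 2 in the middle and none on the right.

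The difference between a pair of members in the same library stays the same when a constant is added to all values of that library. Quantile normalization is not such a constant and can change it. These pairs were chosen after the values were seen and are given as a description, and the size of a difference between genes also depends on transcript length, so only its shift between genotypes is read. nob-1 exceeded mab-5 by 1.95 to 2.26 log2 units in the triple mutant, by 1.84 to 2.38 in the labelled double mutant and by 0.70 to 1.20 in daf-2, with no overlap between either mutant and daf-2. ceh-13 exceeded mab-5 by 2.55 to 3.08, 2.63 to 3.14 and 1.75 to 2.00 in the same order, again without overlap with daf-2. ceh-13 exceeded its neighbour lin-39 by 0.65 to 1.48 in the triple mutant and 0.92 to 1.39 in the labelled double mutant, against 0.05 to 0.70 in daf-2. Here the triple mutant and daf-2 libraries overlapped. nob-1 minus egl-5 was 4.21 to 5.11, 4.54 to 5.18 and 3.84 to 4.27, with overlap between the triple mutant and daf-2. php-3 minus lin-39 was -1.09 to -0.34, -0.99 to -0.71 and -1.68 to -1.11, without overlap with daf-2. nob-1 minus php-3 overlapped between all genotypes (1.01 to 1.14, 1.11 to 1.34 and 0.51 to 1.16), as did ceh-13 minus nob-1 (0.60 to 0.81, 0.67 to 0.79 and 0.55 to 1.30). As a description, ceh-13 and nob-1 stood higher in the mutants relative to mab-5 under any constant scaling of a library. mab-5 is the member with the lowest log2 fold change in both comparisons with daf-2. nob-1 was not separated from php-3 or ceh-13 in this way.

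Markers of embryonic stage moved with genotype. Lists of 14 maternal, 12 early zygotic and 14 late embryonic genes were read in each library. Of the maternal genes 1 of 14 was called higher in the triple mutant and 12 of 14 in the labelled double mutant, both against daf-2, and none was lower, with 6.38% and 7.00% of all genes called higher. Their mean rlog was 11.02 to 12.66 in the triple mutant, 11.96 to 12.54 in the labelled double mutant and 10.34 to 11.73 in daf-2. Early zygotic genes had 2 of 12 called higher and 1 lower in the triple mutant, and 8 of 12 higher in the labelled double mutant. The late list, which holds muscle, basement membrane, cuticle and neuronal genes, had 9 of 14 called lower in the triple mutant and 8 of 14 in the labelled double mutant, with 16.2% and 15% of all genes called lower, and 1 neuronal gene of it, unc-119, was higher in both. Its mean rlog was 12.65 to 13.49 in the triple mutant, 12.97 to 13.38 in the labelled double mutant and 13.56 to 13.92 in daf-2. A score of stage was formed by subtracting the late mean from the mean over maternal and early zygotic members. It was -3.98 to -1.26 in the triple mutant, -2.58 to -1.75 in the labelled double mutant and -4.80 to -3.18 in daf-2. A higher score marks a library with more early and less late RNA. Replicate 4 had the highest score of its genotype both in the triple mutant (-1.26) and in daf-2 (-3.18). Yolk protein, sperm and oocyte genes (8 listed) had mean rlogs of 5.06 to 5.50 in the triple mutant, 5.02 to 5.44 in the labelled double mutant and 4.73 to 5.59 in daf-2, and of these only rme-2 was called, higher in the labelled double mutant. Of 8 other genes listed for the embryonic posterior, 3 were called lower in the triple mutant (mab-9, egl-38 and lin-44), where 16.2% of all genes were. In the labelled double mutant 2 were lower (mab-9 and egl-38), where 15% of all genes were. There 1, hlh-25, was higher, where 7.00% of all genes were. The list went both ways, with 5 of 8 changes positive in the triple mutant and 4 of 8 in the labelled double mutant. Its median changes were 0.34 and 0.05. In whole eggs, a change in the number of cells that express a Hox gene and a change in RNA per cell cannot be told apart.

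Within genotypes, Hox genes were lower where the stage score was higher. Over the 12 libraries, the correlation between a gene's deviation from its genotype mean and that of the score was -0.89 for lin-39, -0.84 for mab-5 and -0.76 for egl-5, and it was -0.58 for php-3, -0.58 for nob-1 and -0.48 for ceh-13. These points share library, batch and normalization, and replicate 4 of the triple mutant lies at one end. Between genotypes the relation ran the other way for ceh-13, php-3 and nob-1, which were higher in the mutants although the mutants had higher scores on average. With the score as covariate in the model, the log2 fold changes against daf-2 were 1.25 for nob-1, 0.92 for ceh-13 and 0.88 for php-3 in the triple mutant (adjusted p = 3.64e-04, 5.4e-04 and 6e-04), and 1.25, 0.87 and 0.67 in the labelled double mutant (adjusted p = 0.00415, 0.00762 and 0.0241). All of these were called. With a negative relation within genotypes and higher mutant scores, the covariate could only raise these 3 genes. lin-39 was then at 0.43 and 0.41, mab-5 at 0.07 and 0.06, and egl-5 at 0.72 and 0.69, of which egl-5 in the triple mutant was called (adjusted p = 0.0422). The scores of the labelled double mutant and daf-2 do not overlap, so the values for that comparison rest on extrapolation alone, and only replicates 2 and 3 of the triple mutant fall within the daf-2 range. The part of stage in the changes was not tested beyond this model.

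**Figure D3:**
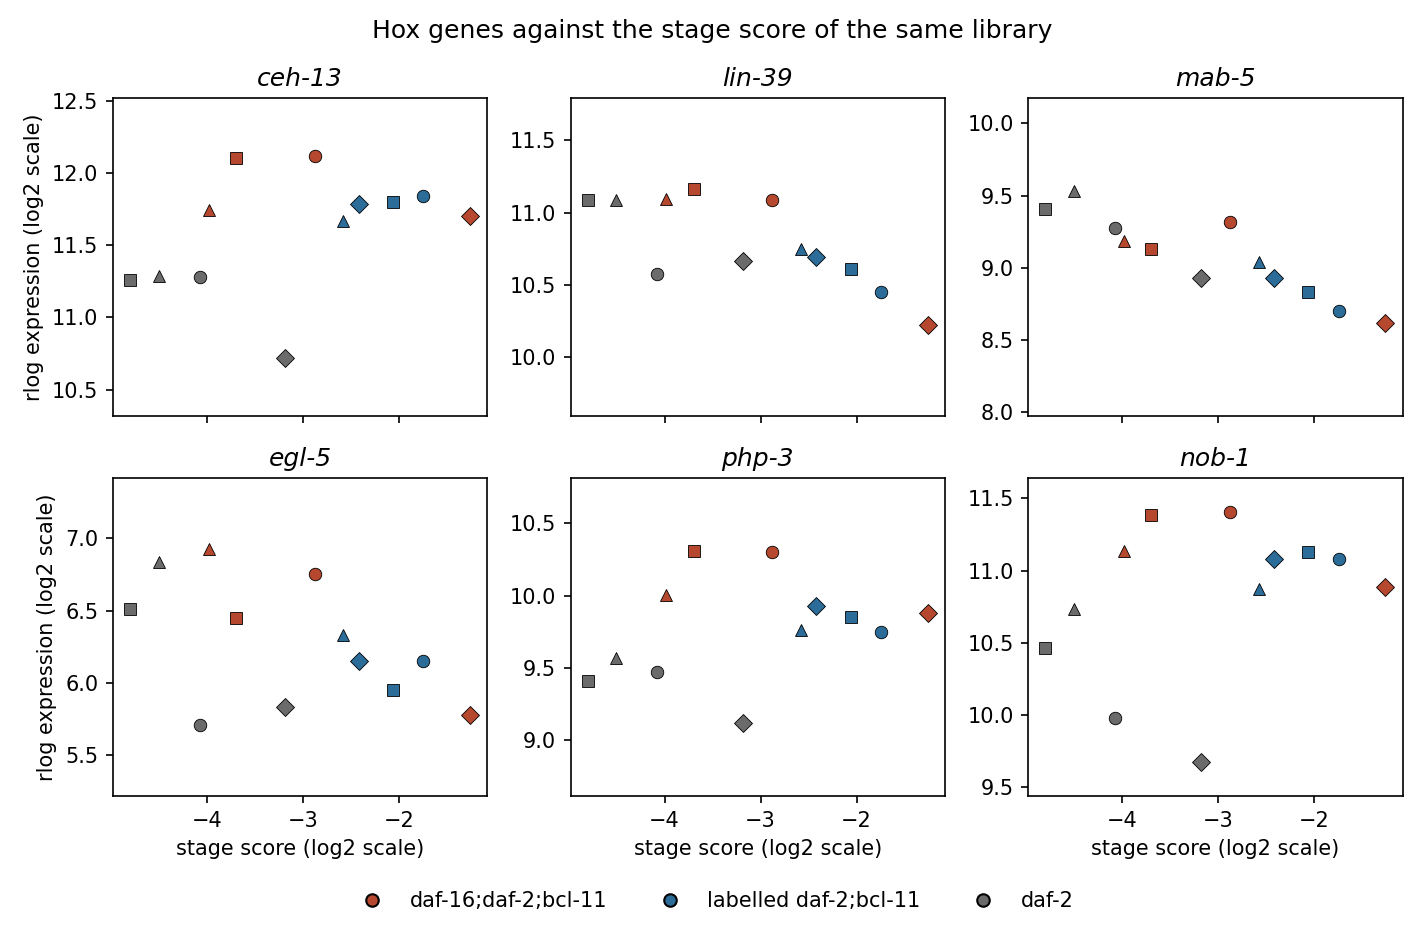
rlog expression (log2 scale) of each Hox gene against the stage score of the same library (x axis, log2 scale; higher means relatively more maternal and early zygotic RNA), coloured by genotype with the replicate symbols of the plot of values by library. lin-39 and mab-5 tend to be lower at higher scores; no labelled double mutant library lies within the daf-2 range of scores (-4.80 to -3.18), and of the triple mutant only replicates 2 and 3 do.

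By the smallest root mean square difference over the 12 libraries, after each gene's mean was removed, php-3 was the Hox gene most like ceh-13 (0.117 log2 units) and ceh-13 the one most like nob-1 (0.194), although ceh-13 lies in another part of the chromosome. lin-39 and mab-5 were each other's nearest (0.175), and lin-39 was nearest to egl-5 (0.219). Among the 16196 other genes with a symbol and a mean rlog of at least 3.32, the closest to ceh-13 were C06E1.1 (0.0676) and F18H3.1 (0.075). For nob-1 they were the T-box gene tbx-8 (0.121) and tiar-1 (0.126), both called higher in each mutant against daf-2, as nob-1 was. Both were picked for a pattern like that of nob-1, so these calls add no support. For php-3 the closest were swsn-3 (0.0875) and mel-28 (0.0931). For lin-39 they were inx-12 (0.0852) and tdo-2 (0.086), for mab-5 F20C5.11 (0.0616) and K11H12.5 (0.0638), and for egl-5 F52E1.9 (0.171) and F21G4.1 (0.175).

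The genes beside the Hox genes mostly showed no call. Of the neighbours that are not themselves Hox genes, cyk-7, 9991 bp from mab-5, was called higher in the triple mutant (0.73, adjusted p = 0.0185) and in the labelled double mutant (0.81, adjusted p = 0.0112), calls that were lost with the stage score as covariate (0.32 and 0.15). The first was also lost without replicate 4 of the triple mutant (0.56) or replicate 1 of daf-2 (0.66). Neither neighbour of ceh-13 (the microRNA gene mir-231 and lgc-12) was called, nor was zyg-8 beside php-3 (0.39 and 0.24) or linc-161 beside nob-1 (0.15 and 0.23). egl-45 beside egl-5 changed by 0.56 (adjusted p = 0.00183) and 0.41 (adjusted p = 0.0156) in the same order, both under the threshold on size. Within 100 kb of php-3 and nob-1, of 18 other coding genes 3 were called higher and 3 lower in the triple mutant, and 3 higher and 2 lower in the labelled double mutant. Within the same distance of lin-39 and ceh-13, of 36 coding genes 2 were higher and 8 lower in the triple mutant, and 2 higher and 9 lower in the labelled double mutant. Around mab-5 and egl-5, of 45 coding genes 2 were higher and 9 lower in the triple mutant, and 4 higher and 8 lower in the labelled double mutant. Over all genes 6.38% were higher and 16.2% lower in the triple mutant, and 7.00% higher and 15% lower in the labelled double mutant.

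Of the 5 TALE cofactors that bind DNA with Hox proteins, ceh-40 alone was called, which is near the share of all genes called (22.5% in the triple mutant and 22% in the labelled double mutant). This extradenticle/Pbx-type gene had a mean rlog of 13.17 ± 0.21 in the triple mutant, 13.15 ± 0.06 in the labelled double mutant and 12.47 ± 0.30 in daf-2 (SD, n = 4 each), with log2 fold changes of 0.71 (adjusted p = 0.00192) and 0.68 (adjusted p = 0.00304) against daf-2. Both calls were lost without replicate 4 of daf-2 and after quantile normalization (0.46 and 0.49). ceh-20, the main Pbx-type cofactor, was at 0.58 (adjusted p = 0.00773), just short of the size threshold, and at 0.19, and the Meis-type unc-62 was at 0.40 and 0.09. psa-3, another Meis-type gene and a target of nob-1 in the tail, was at 0.38 and 0.24. The median change of the 5 was 0.40 and 0.19.

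Chromatin regulators of Hox genes were called only in the upward direction in these comparisons. In the triple mutant against daf-2, 4 of 11 were higher, where 6.38% of all genes were: spat-3 (0.70, adjusted p = 3.46e-04), a RING1-type gene, mes-2 (0.68), the E(z) histone methyltransferase, sop-2 (0.63), a repressor of Hox genes, and mes-6 (0.62), the partner of MES-2. The labelled double mutant had 2 of 11 higher than daf-2, where 7.00% of all genes were, namely mes-6 (0.79, adjusted p = 0.0022) and mes-2 (0.74, adjusted p = 0.00238), while sop-2 was at 0.48 and spat-3 at 0.46. The list's median was 0.49 and 0.40. These calls were sensitive to scaling: after quantile normalization none was called in the triple mutant and 1 in the labelled double mutant. After median centring 11 and 7 were called, all higher. Over all genes, quantile normalization called 2277 and 2210 higher and centring 9434 and 6714, against 1603 and 1758 as deposited. With the stage score as covariate neither mes-2 (0.48 in the triple mutant and 0.42 in the labelled double mutant) nor mes-6 (0.33 and 0.32) was called. mes-2 and mes-6 lost their triple mutant calls without replicate 4 of the triple mutant (0.54 and 0.44) or replicate 1 of daf-2 (0.57 and 0.56), and mes-6 also without replicate 2 of daf-2 (0.58). sop-2 lost its call without replicate 2 (0.51) or 3 (0.58) of the triple mutant or replicate 4 of daf-2 (0.56).

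Among 10 genes of axial patterning and Wnt signaling upstream of Hox genes, 3 were called higher and 2 lower in the triple mutant against daf-2, with 6.38% of all genes higher and 16.2% lower. The TCF factor pop-1 was at 0.71, the beta-catenin sys-1 at 0.68 and mig-14, needed for Wnt secretion, at 0.59. The beta-catenin bar-1, through which Wnt signals turn on lin-39 and mab-5 in larvae, was at -0.77 (adjusted p = 0.00604), and the tail Wnt lin-44 also at -0.77 (adjusted p = 0.0143). In the labelled double mutant against daf-2, pop-1 was higher (0.59, adjusted p = 0.0241) and bar-1 lower (-0.87, adjusted p = 0.00338), with mig-14 at 0.36, sys-1 at 0.37 and lin-44 at -0.53. The call of pop-1 there was lost without replicate 1 or 4 of the labelled double mutant or replicate 4 of daf-2. Median centring left bar-1 negative without a call (-0.23 and -0.44), and with the stage score as covariate it was not called either (-0.49 and -0.40). Its triple mutant call was also lost after quantile normalization (-0.583), just short of the size threshold. The call of lin-44 in the triple mutant was lost with centring (-0.23), with the stage covariate (-0.59, adjusted p = 0.0774) and without replicate 1 of the triple mutant (-0.56). That of mig-14 was lost after quantile normalization (0.32) and without replicate 2 (0.51) or 3 (0.57) of the triple mutant or replicate 1 (0.54) or 4 (0.51) of daf-2, and that of sys-1 after quantile normalization (0.39). The caudal homologue pal-1, an early regulator of posterior fate, was at 0.51 (adjusted p = 0.00237) and 0.50 (adjusted p = 0.00319), below the size threshold.

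Of 8 genes reported as targets of Hox factors, 2 were lower in both comparisons, where 16.2% of all genes were called lower in the triple mutant and 15% in the labelled double mutant, so that 2 of 8 is near the background. mec-3, a LIM homeobox gene of touch neurons, had mean rlogs of 7.14 ± 0.27 in the triple mutant, 7.48 ± 0.26 in the labelled double mutant and 8.62 ± 0.33 in daf-2 (SD, n = 4 each). Its log2 fold changes were -1.49 (adjusted p = 1.18e-04) and -1.14 (adjusted p = 0.00111). eff-1, the cell fusion protein whose gene is under Hox control in the epidermis, had means of 8.67 ± 0.31, 8.79 ± 0.27 and 9.93 ± 0.22 (SD, n = 4 each), with changes of -1.26 (adjusted p = 2.17e-04) and -1.13 (adjusted p = 6.55e-04). Both genes stayed called lower under all 21 alternatives in both comparisons. hlh-8 (-0.26 and -0.28), the cell death activator egl-1 (0.30 and -0.14), egl-18 (0.36 and 0.29), elt-6 (-0.10 and -0.34), mig-13 (0.48 and 0.29) and psa-3 were not called.

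**Figure D4:**
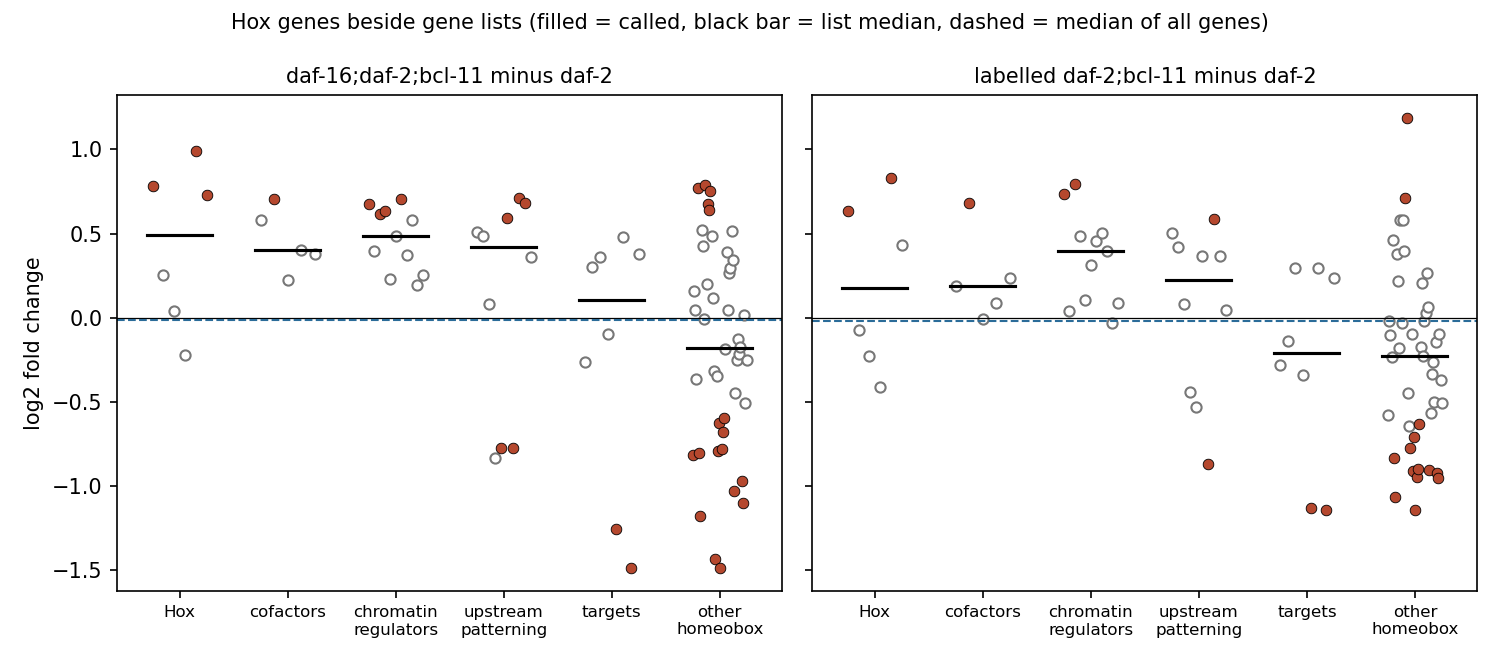
log2 fold change (y axis) of the 6 Hox genes and of the members of 5 gene lists in the triple mutant minus daf-2 (left) and in the labelled double mutant minus daf-2 (right). Filled points are called genes, black bars are list medians and the dashed line is the median of all genes; called chromatin regulators and cofactors lie above 0, the called targets, mec-3 and eff-1, lie below -1, and other homeobox genes spread to both sides.

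The 44 other homeobox genes measured, mostly factors of neuron and tissue identity, had more calls down than up on the deposited scale. All genes did too, but the share called lower was larger in this list. In the triple mutant against daf-2, 5 were called higher and 13 lower, with a median change of -0.18, and in the labelled double mutant 2 were higher and 12 lower, with a median of -0.23. Over all genes 1603 (6.38%) were called higher and 4058 (16.2%) lower in the triple mutant. In the labelled double mutant 1758 (7.00%) were higher and 3759 (15%) lower. After median centring the split became 18 higher and 3 lower in the triple mutant, and 10 higher and 2 lower in the labelled double mutant. Over all genes centring gave 9434 higher and 2031 lower, and 6714 higher and 1860 lower. With the stage score as covariate the split was 9 higher and 6 lower, and 4 higher and 3 lower. Over all genes it was then 1985 higher and 3949 lower, and 1405 higher and 2537 lower. The largest called decreases in the labelled double mutant were mec-3, ceh-24 (-1.06) and ceh-18 (-0.95). There ceh-18 lost its call with median centring (-0.52), quantile normalization (-0.57) and the stage covariate (-0.91, adjusted p = 0.113), and ceh-24 with quantile normalization (-0.63) and the stage covariate (-0.74). The triple mutant call of ceh-18 was lost with median centring (-0.56) and quantile normalization (-0.60). The called increases were ceh-51 (1.19), a mesoderm factor of early embryos, and ceh-43 (0.71), the Distal-less homologue. ceh-51 was at -0.06 with the stage score as covariate and lost its call without replicate 1 of the labelled double mutant (1.12) or replicate 2 of daf-2 (0.98), and ceh-43 lost its calls with quantile normalization (0.52, and 0.46 in the triple mutant). In the triple mutant these 4 genes changed by -1.18 for ceh-24, -1.10 for ceh-18, 0.48 for ceh-51, which was not called, and 0.75 for ceh-43.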

How the data were processed

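RNA of eggs was measured in 12 Smart-seq2 libraries, 4 for each of 3 genotypes, grouped by the labels. The authors demultiplexed reads with bcl2fastq 2.20, quantified them with Kallisto (given as version 048.0 in the submitters' processing notes) on WBcel235, and deposited rlog values, which are normalized counts on a log2 scale. How transcripts were summed to genes, the size factors and any filter are not given in the sources used here. rlog draws low counts towards the mean and keeps no depth, so no count test and no interval from depth was possible. The deposited log2 values were used without further scaling.

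One linear model of all 12 libraries, without a block, was fitted to all 25122 genes in limma 3.58.1 (R 4.3.3, trended eBayes). For single genes, exact permutation p-values (two-sided, 70 arrangements) came from scipy 1.17.1. On simulated data of 25122 genes with known changes in the labelled double mutant against daf-2, the model called 78 of 100 genes changed by 1 log2 unit. It called 96 of 100 changed by 2, with 5 false calls. The simulated noise was independent between genes and few genes were changed, unlike the real data. Every Hox change against daf-2 was below 1 log2 unit, so these rates do not cover them. Identifiers were matched to symbols for 23471 genes, and positions came from Ensembl 115.

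Named genes were the 6 Hox genes, targeted genes, neighbours, called members of 4 lists, the largest changes of the homeobox list, and the 2 genes most like each Hox gene. The members and lists were chosen with earlier results of these data known. Alternatives were eBayes without trend, the compared genotypes alone, a minimum mean rlog of 3.32 (log2 of 10), median centring, a block for the replicate number, quantile normalization, other fold thresholds, a stage score as covariate, and each library left out. The replicate number was taken as the batch, which pairs libraries across genotypes. What same-numbered libraries shared in handling is not stated. Deviations of same-numbered libraries had a mean correlation across genes of 0.21 between the triple mutant and daf-2, 0.03 between the labelled double mutant and daf-2 and -0.05 between the mutants. No pair of libraries held identical values. Protein and promoter sequences were not used here.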

Additional observations from a re-analysis of the deposited data

Results flagged for a closer look

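Of 27 groups of 4 libraries checked, for the 6 Hox genes and the 3 targeted genes in each genotype, 2 held 1 library far from the other 3, where chance gives about 1.35. For ceh-13, replicate 4 of daf-2 stood at 10.72 while the remaining daf-2 libraries averaged 11.27, a gap of 0.956 of the range of all 4. For lin-39, replicate 4 of the triple mutant stood at 10.22 while the remaining libraries of that genotype averaged 11.12, a gap of 0.92 of the range. Both libraries had the highest stage score of their genotype, and the part of stage in these values was not tested.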

How the results depend on the processing

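The counts of Hox genes called, 3 in the triple mutant and 2 in the labelled double mutant, both against daf-2, became 0 in each at a fold threshold of 1 on the log2 scale, since every change was below it, and 1 in the second comparison without replicate 4 of daf-2. Across the fits without 1 library the counts were 3 to 3 and 1 to 2. With the replicate block they were 3 and 2, and the block changed no call of a Hox gene, though the adjusted p of php-3 in the labelled double mutant against daf-2 became 0.0532. The directions of ceh-13, php-3 and nob-1 against daf-2 held under all 21 alternatives each, but most of these could not turn them. Settings that change only the spread, the thresholds or the gene filter leave the log2 fold change as it is. Leaving out 1 library cannot turn groups that do not overlap, and centring added to changes that were already positive. The stage covariate also added to them, since within genotypes these genes fell as the score rose and the mutants had higher scores on average. Quantile normalization could have turned the directions and did not.

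Among the Hox genes, changes that were not called turned sign. In the labelled double mutant against daf-2, median centring gave lin-39 0.20, mab-5 0.016 and egl-5 0.35, quantile normalization gave egl-5 0.34, and the stage score gave lin-39 0.41, mab-5 0.065 and egl-5 0.69. In the triple mutant against daf-2, mab-5 was at 0.32 with centring, 0.13 after quantile normalization and 0.069 with the stage score. With the stage score nob-1 was at -0.0017 between the mutants. Without 1 library, egl-5 in the labelled double mutant ran from -0.25 to 0.13 and lin-39 in the triple mutant from -0.054 to 0.26. Others that moved by over 1.5 times were egl-5 (0.08 to 0.49) and mab-5 (-0.34 to -0.08) in the triple mutant and lin-39 (-0.32 to -0.15) in the labelled double mutant. Between the mutants the ranges were 0.18 to 0.49 for lin-39, 0.18 to 0.56 for egl-5, 0.10 to 0.34 for mab-5, 0.08 to 0.22 for ceh-13 and 0.09 to 0.27 for nob-1. The called increase of ceh-51 in the labelled double mutant turned to -0.057 with the stage score, and its value in the triple mutant to -0.28. Centring adds a constant to every change, which accounts for its changes of sign; other causes were not tested.

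Counts over all genes for the triple mutant against daf-2 were 5661, 11465 with centring (9434 higher, 2031 lower, against 1603 and 4058 as deposited) and 2629 at the threshold of 1. For the labelled double mutant against daf-2 they were 5517, 8574 with centring (6714 higher, 1860 lower, against 1758 and 3759) and 2511. Between the mutants they were 3, 7 with the stage score and 2 to 357 without 1 library, the 357 without replicate 4 of the triple mutant. Without 1 library the other counts were 5283 to 6163 and 4493 to 5825.

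For the lists, counts in the triple mutant are given first and those in the labelled double mutant second, both against daf-2. Over all genes the counts moved too, from 5661 and 5517 to 11465 and 8574 with centring and 4918 and 4818 after quantile normalization. They were 2629 and 2511 at the threshold of 1, 7973 and 7375 without one, and 5934 and 3942 with the stage score. Cofactors (1 and 1) became 5 and 3 with centring, 0 and 0 at the threshold of 1, 4 without a fold threshold and 3 with the stage score in the first, and 0 after quantile normalization in the second, with 0 to 2 and 0 to 1 without 1 library. Chromatin regulators (4 and 2) became 11 and 7 with centring, 0 and 1 after quantile normalization, 0 and 0 at the threshold of 1 and 7 and 5 without one, with 2 to 6 in the first without 1 library. Upstream genes (5 and 2) became 3 in the first after quantile normalization, 5 in the second with centring and without a fold threshold, and 0 and 0 at the threshold of 1, with 1 to 3 in the second without 1 library. Targets (2 and 2) became 6 and 5 with centring, and 4 in the first without a fold threshold and with the stage score. Other homeobox genes (18 and 14) became 11 and 7 after quantile normalization, 5 and 3 at the threshold of 1, and 7 in the second with the stage score. The rlogs took no pseudocount, so none was varied. Depth is unknown, and egl-5, with the lowest rlogs of the Hox genes, is the member whose change rlog may most understate.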
